A study of Mus musculus with 6 samples.

Results

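The mIMCD3 cell line, derived from the mouse inner medullary collecting duct, was treated for 1 h with aldosterone or with its vehicle, and the experiment was carried out 3 times. Each replication gave 1 vehicle and 1 aldosterone array, 6 single-colour oligonucleotide arrays in all. Compared here were the 2 arrays of replication 1 (1 vehicle, 1 aldosterone) and the 4 of replications 2 and 3 (2 vehicle, 2 aldosterone). They were grouped by the replication number in their titles. The comparison itself was chosen with earlier results of these data known. All groups hold the same cell line without a genetic change named in the labels, and the hormone dose is not given in the sources used here. The question was which transcripts set replication 1 apart from replications 2 and 3 irrespective of the hormone. Replications 2 and 3 are called the later ones by their number only, since the titles give no dates. The labels do not say whether the replications were separate cultures, thaws or passages. The 2 arrays of replication 1 are therefore 1 repeat of the experiment against 2 others, its p-values reflect only the spread among these arrays, and culture, handling, RNA preparation and array of a replication cannot be told apart.

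Immediate early genes are the first transcripts a cell makes after a growth factor, fresh serum, shear or stress reaches it. Their promoters are held ready, so that kinase signals through the MAP kinase cascade switch them on within minutes without new protein synthesis. Most of their transcripts are short-lived and fall back as soon as the signal ends. Many encode transcription factors such as the Fos, Jun and Egr proteins, others secreted factors, and others the inhibitors that end the signal. In cultured epithelial cells their level is known to depend on serum, medium changes and handling as well as on hormones.

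Every array was scaled to a common 2% trimmed mean of 2090, and values below are scaled intensities in arbitrary units unless they are log2 differences. The trimmed means as deposited were 86.5 for aldosterone in replication 3 and 2488 to 2493 for the other 5 arrays, so the former was multiplied by 24.2 and the latter by 0.838 to 0.840. The log2 values of each array correlated best with those of the other array of the same replication, at r = 0.973 for replication 1, whose arrays correlated at 0.938 to 0.958 with the other 4 (Pearson, across 7453 probe sets, a description). Transcripts of simple epithelium were bright on all 6 arrays, with the keratin Krt8 at 15679.9 to 23502. Aqp2, the vasopressin-regulated water channel of collecting duct principal cells, was dim at 101 to 762, and Hsd11b2, the enzyme that shields the mineralocorticoid receptor from glucocorticoids, at 112 to 286. Both lay under the intensity filter and were not tested.

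Replication 1 carried more transcript of a group of immediate early genes, with vehicle and with aldosterone. In limma's fit with treatment as a term, 23 of 7453 tested probe sets (0.309%) passed an adjusted p of 0.05, 18 higher in replication 1 (0.242%) and 5 lower (0.0671%). All 23 lay outside the range of the other replications in vehicle and in aldosterone, in the same direction. Of all tested probe sets, 15.1% lay above in this way and 14.2% below. The fit that picked the 23 favours such a gap, so their position is no separate evidence. In bulk RNA a shift in the share of cells that carry a transcript and a shift in its amount per cell cannot be told apart. The 23 include 21 genes by symbol. Taken by its brightest probe set only, 11 genes were called higher and 3 lower. Of the 16 genes that were higher, 10 belong to the immediate early list, among them Egr1, Ccn1, Hbegf, Junb and Jund. That list holds 47 of the 5640 tested genes and was chosen with the difference of replication 1 already known. The 5 lower genes were Acp1, Igf2bp1, Scd1, Rnf149 and Polr2a. The same fit set for replication 2 called 1 probe set higher and 5 lower, and for replication 3 called 0 higher and 6 lower. No immediate early gene was among them. Because of how the list was chosen, this is not an even comparison of the replications. Counted without a test, 101 probe sets (1.36%) were at least 1.5-fold above both other replications in each treatment and 37 (0.496%) as far below. Without the intensity trend in limma's variance model 0 probe sets passed, at 652 with an unadjusted p under 0.05 against 676 with the trend. With the replication number as a random block, which treats the 2 arrays of a replication as related, 11 of the 23 remained (0.148%), 8 higher and 3 lower. With the number as a fixed block, whose error leaves out the spread between replications 2 and 3, 260 were called (3.49%), the 23 among them. Left out 1 at a time, the vehicle and the aldosterone array of replication 1 each took the count to 0 (with 264 and 345 reaching an unadjusted p under 0.05). The vehicle and aldosterone arrays of replication 2 took it to 51 and 1, and those of replication 3 to 15 and 37.

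**Figure D1:**
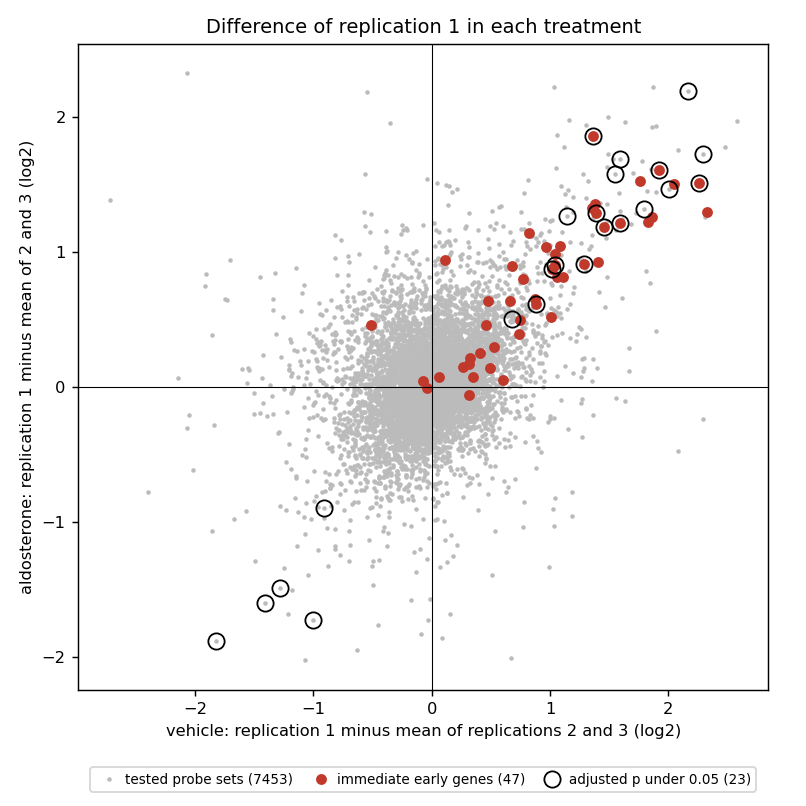
Difference of replication 1 from the mean of replications 2 and 3 (log2) with vehicle (horizontal axis) and with aldosterone (vertical axis) for 7453 tested probe sets. Red points are the 47 tested immediate early genes and black rings the 23 probe sets past the threshold, which lie in the upper right (18) and lower left (5) quadrants.

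Among the called transcription factors, Egr1 stood farthest apart. Egr1, a zinc finger factor that links growth factor signals to gene expression, had scaled intensities of 14369.5 with vehicle and 9794 with aldosterone in replication 1, against 2966 and 3509.6 in replication 2 and 2964 and 3276 in replication 3. Its level on the lower of the replication 1 arrays was above that of all 4 other arrays, which lay close together. The log2 difference was 1.89 (SE 0.185, 3.7-fold; 2 against 4 arrays, limma adjusted p = 0.0152, 0.0252 with the random block). Junb, a subunit of the AP-1 factor, had scaled intensities of 8845 with vehicle and 8626 with aldosterone in replication 1, against 3704 and 4447 in replication 2 and 3022 and 2744 in replication 3, a log2 difference of 1.34 (SE 0.207, limma adjusted p = 0.0496). Jund, the AP-1 subunit that resting cells hold at a steady level, had scaled intensities of 81782 with vehicle and 81676 with aldosterone in replication 1, against 45875 and 58431 in replication 2 and 43128 and 48584 in replication 3. It differed by 0.75 (SE 0.115, limma adjusted p = 0.0496). Atf3, a factor of the same family induced by stress, had scaled intensities of 8535 with vehicle and 9166 with aldosterone in replication 1, against 4233 and 4756 in replication 2 and 4008 and 4963 in replication 3, a log2 difference of 0.97 (SE 0.133, limma adjusted p = 0.0318). In all 4 genes the groups did not overlap. With the random block the adjusted p was 0.0754 for Junb, 0.0848 for Jund and 0.0754 for Atf3, so these calls were lost while that of Egr1 held.

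The secreted products included Ccn1 and Hbegf. Ccn1, a matrix-associated protein that binds integrins, had scaled intensities of 11879 with vehicle and 10154 with aldosterone in replication 1, against 3130.0 and 4016 in replication 2 and 3075 and 2681 in replication 3. Hbegf, a membrane-anchored ligand of the EGF receptor, had scaled intensities of 4664 with vehicle and 5061 with aldosterone in replication 1, against 1738 and 1411 in replication 2 and 1821 and 1303 in replication 3. Both replication 1 arrays stood above all others for both genes, by log2 1.77 (SE 0.188, 3.4-fold) for Ccn1 and 1.61 (SE 0.182, 3.06-fold) for Hbegf. The limma adjusted p was 0.0152 for each, and 0.0252 and 0.0334 with the random block. Ccn2, the relative of Ccn1 known as connective tissue growth factor, had scaled intensities of 20055 with vehicle and 27240.5 with aldosterone in replication 1, against 5378 and 13043 in replication 2 and 2340.1 and 4782 in replication 3. Replication 1 was highest and replication 3 lowest within each treatment. The log2 difference was 2.13, with an SE of 0.427 and a limma adjusted p of 0.094. The adjusted p of Ccn2 was 0.112 with the random block and 0.000307 with the fixed block, whose error leaves out the gap between replications 2 and 3.

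Of the genes that dampen growth factor signals, 3 passed the threshold. Errfi1, an inhibitor that binds the EGF receptor, had scaled intensities of 9852 with vehicle and 12552 with aldosterone in replication 1, against 5122 and 6908 in replication 2 and 4597 and 6696 in replication 3. Both arrays of replication 1 were above the other 4, and in each replication the aldosterone array was the higher one. Phlda1, a pleckstrin homology protein induced by growth factors, had scaled intensities of 5037 with vehicle and 3535 with aldosterone in replication 1, against 1489.8 and 1749 in replication 2 and 1796 and 1274 in replication 3, and Ier3, a stress-inducible regulator of MAP kinase signalling and survival, had scaled intensities of 20137 with vehicle and 15659 with aldosterone in replication 1, against 7780.5 and 9427 in replication 2 and 8684 and 7311 in replication 3. The log2 differences were 0.95 (SE 0.13) for Errfi1, 1.40 (SE 0.204) for Phlda1 and 1.10 (SE 0.156) for Ier3. Their limma adjusted p-values were 0.0318, 0.0411 and 0.0378, and 0.0754, 0.0895 and 0.0814 with the random block. Ier2, a nuclear immediate early protein, had scaled intensities of 11363 with vehicle and 10638 with aldosterone in replication 1, against 4329 and 4991 in replication 2 and 3914 and 4303 in replication 3, a log2 difference of 1.32 (SE 0.146, limma adjusted p = 0.0152, 0.0252 with the random block). On the MAP kinase feedback list, 3 of 11 tested genes were called higher (27.3%, against 0.195% of all tested genes) and 0 with the random block, these being Errfi1, Ier3 and Phlda1, which the immediate early list holds too. The phosphatases Dusp1 and Dusp6, which switch off MAP kinases and were named after their values were seen, differed by 1.01 (SE 0.166, limma adjusted p = 0.0528) and 1.56 (SE 0.296, limma adjusted p = 0.0842). The other 6 members were Dusp2 at 0.62, Dusp8 at 0.42, Spred2 at 0.23, Dusp16 at 0.21, Etv4 at 0.15 and Spry4 at -0.037, with limma adjusted p-values of 0.394 to 0.983.

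**Figure D2:**
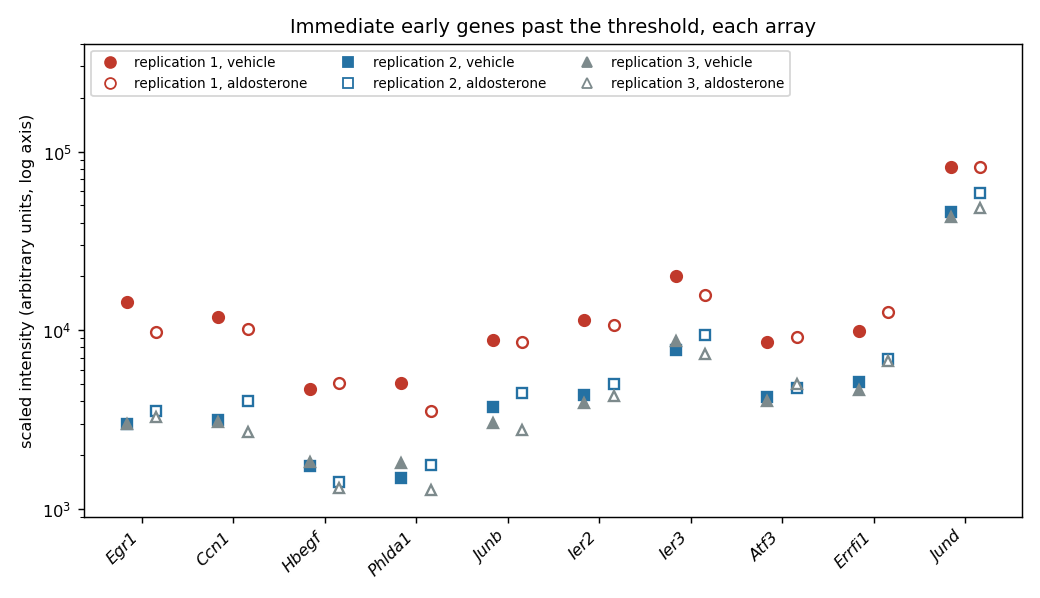
Scaled intensity (arbitrary units, log axis) of the 10 immediate early genes past the threshold on each of the 6 arrays, ordered by the size of the difference. For every gene both replication 1 arrays (red; filled for vehicle, open for aldosterone) lie above the 4 arrays of replications 2 and 3.

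The shift ran through most of the immediate early list, which was chosen with the difference of replication 1 already known from earlier results, so that its counts describe these arrays. Of its 64 genes 52 were on the array, 5 of these were under the intensity filter and 47 were tested. The fit called 10 higher and 0 lower (21.3%, against 0.248% of all 5640 tested genes, 0.195% higher and 0.0532% lower). In 25 of the 47 (53.2%) the replication 1 array lay at least 1.5-fold above both others in vehicle and in aldosterone, against 1.13% of all tested genes, and 0 were as far below. These 25 make up 39.1% of the 64 genes so placed. The replication 1 array was the highest in both treatments for 39 of 47 (83%; 14.7% of all genes). The median log2 difference was 0.79, from -0.02 to 1.89, with 0.88 in vehicle and 0.82 in aldosterone, against 0.00042 over all tested genes. With the random block 4 were called (0.0887% of all genes), with the fixed block 27, all higher (2.04% of all genes), and without the intensity trend 0. With either array of replication 1 left out the count was 0, without those of replication 2 it was 16 and 1, and without the vehicle array of replication 3 it was 4.

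Of the members that were not called, those described next were named after their values were seen, apart from Plk2. Myc, the growth-promoting transcription factor, had scaled intensities of 3319 with vehicle and 2976 with aldosterone in replication 1, against 991 and 1257 in replication 2 and 581 and 815 in replication 3, and differed by 1.78 (SE 0.287, limma adjusted p = 0.052). Fos, the partner of Jun proteins in AP-1, had scaled intensities of 2167 with vehicle and 1530.5 with aldosterone in replication 1, against 639 and 735 in replication 2 and 509 and 529 in replication 3, a log2 difference of 1.53 (SE 0.272, limma adjusted p = 0.0669). In both genes the replication 1 arrays lay above the other 4, with replication 3 the lowest in each treatment. Nr4a1, an orphan nuclear receptor, differed by 1.34 (adjusted p = 0.0518), Klf6, a Krüppel-like factor, by 1.16 (0.0528), Id1, an inhibitor of basic helix-loop-helix factors, by 0.98 (0.0731) and Jun by 1.37 (0.151), all by limma. Plk2, a kinase of the polo family, had scaled intensities of 29527 with vehicle and 23833 with aldosterone in replication 1, against 12592 and 13295 in replication 2 and 5996 and 5094 in replication 3. The order was replication 1, 2 and 3 in both treatments, and the log2 difference of 1.64 had an SE of 0.385 (limma adjusted p = 0.149). At the other end were 3 members with a difference below 0, Klf4 at -0.013 (SE 0.295), Fosb at -0.023 (SE 0.229) and Plk3 at -0.024 (SE 0.266), and in none of the 3 did the replication 1 arrays lie on one side of the others in both treatments.

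The later replications were not alike either. Set against the mean of the 4 later arrays, the median of the 47 genes was 0.81 and 0.90 on the vehicle and aldosterone arrays of replication 1. It was -0.0023 and 0.22 on those of replication 2 and -0.20 and -0.038 on those of replication 3, while the median over all tested genes stayed between -0.0045 and 0.019. Replication 2 lay above replication 3 in both treatments for 30 of the 47 genes (63.8%) and below it for 8 (17%). Over all tested genes these shares were 33.6% and 34.9%. Within every replication the median of the list was higher on the aldosterone array than on the vehicle array.

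**Figure D3:**
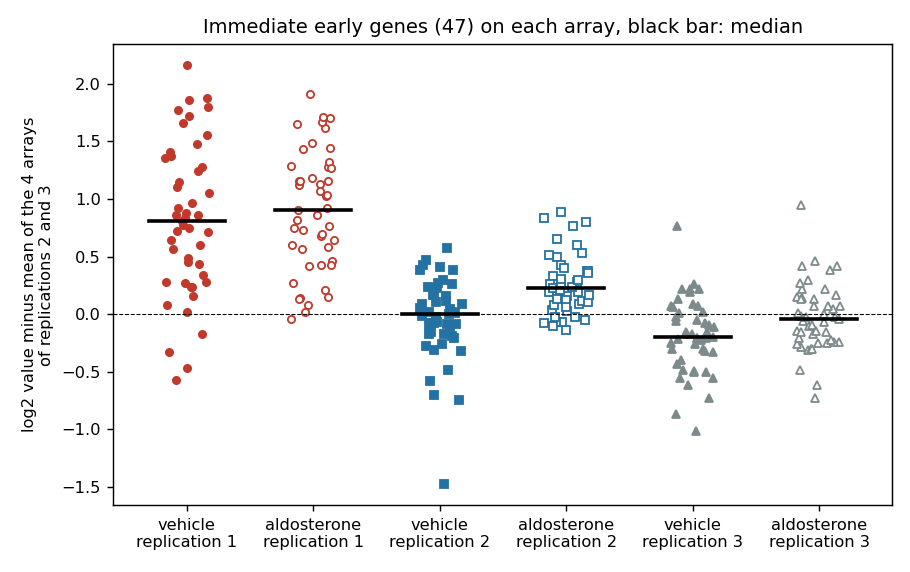
Log2 value of each of the 47 tested immediate early genes on each array minus its mean over the 4 arrays of replications 2 and 3, which are centred by construction. Black bars are medians, 0.81 and 0.90 on the replication 1 arrays and -0.20 to 0.22 on the others.

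The genes that rose most with aldosterone in earlier results of these data were Sgk1, Per1, Edn1 and Ccn2. None was called for replication 1. Edn1 and Ccn2 were still at least 1.5-fold above both other replications in each treatment, as were 1.13% of all tested genes. For Sgk1 the replication 1 array was the highest in both treatments, as for 14.7% of all genes, and for Per1 it was not. The values of Ccn2 are given above. Sgk1, a kinase that keeps epithelial sodium channels in the apical membrane, had scaled intensities of 1059 with vehicle and 3043 with aldosterone in replication 1, against 805 and 2311 in replication 2 and 639.6 and 2637 in replication 3. Per1, a repressor of the circadian clock, had scaled intensities of 1118 with vehicle and 2765 with aldosterone in replication 1, against 981 and 3047 in replication 2 and 1169.6 and 2265 in replication 3. For both, each aldosterone array was above every vehicle array, and the replication 1 arrays differed from the others by 0.41 (SE 0.201, limma adjusted p = 0.611) and 0.066 (SE 0.201, limma adjusted p = 0.964). The sign for Per1 turned under median scaling, to -0.0074. Edn1, the endothelin-1 gene, whose peptide constricts vessels and inhibits collecting duct sodium transport, had scaled intensities of 1669 with vehicle and 3655 with aldosterone in replication 1, against 1082 and 2320.0 in replication 2 and 1023 and 1944 in replication 3, a log2 difference of 0.70 (SE 0.181, limma adjusted p = 0.197). A test of whether the difference of replication 1 was itself unequal between treatments called 0 of 7453 probe sets in limma, with 89 (1.19%) at an unadjusted p under 0.05 and a smallest adjusted p of 0.9997. It called 3 without the vehicle array of replication 2 and 21 without that of replication 3. The error of this test holds the gap between replications 2 and 3. With the fixed block, whose error leaves that gap out, it called 0 too in limma, with 317 at an unadjusted p under 0.05. The difference with vehicle and that with aldosterone correlated at r = 0.377 over 7453 probe sets and 0.834 over the 47 immediate early genes. These are descriptions, since the arrays of each replication may share their culture. Over all tested probe sets r was 0.387 for replication 2 and 0.471 for replication 3, computed alike. The immediate early list was chosen with the difference of replication 1 known, which favours a high r among its genes.

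Promoter sequence was taken from RefSeq (GRCm38.p6), in windows from 250 bases before to 50 bases after each annotated start, and 37 of the 47 tested immediate early genes had at least 1 window, 48 windows in all. The cyclic AMP response element TGACGTCA, bound by CREB and ATF proteins, was found on either strand in 6 of these 48 windows (12.5%), against 1.79% of all 32851 windows and 2.89% of those of tested genes. The 6 genes were Btg2, Dusp1, Errfi1, Maff, Plk2 and Ppp1r15a. Its palindrome reads the same on both strands and cannot be an AP-1 match of the form TGANTCA, which was found in 2 of the 48 windows (4.17%) against 7.81% of all and 5.39% of those of tested genes. The CArG box, bound by serum response factor, was found in 1 window, that of Zfp36, against 1.63% of all windows and 1.35% of those of tested genes. Among the genes called higher, 11 of 16 had a window, and 1 of their 14 windows held the cyclic AMP response element. The 250 bases before the start are shown for the 4 genes that the naming rule takes and that hold either element, each 5′ to 3′ on the strand of the gene with the element in capitals. They are Plk2 (chr13:110394794-110395043, plus strand), Errfi1 (chr4:150854820-150855069, plus strand), Zfp36 (chr7:28379229-28379478, minus strand) and Btg2 (chr1:134079156-134079405, minus strand).
Plk2: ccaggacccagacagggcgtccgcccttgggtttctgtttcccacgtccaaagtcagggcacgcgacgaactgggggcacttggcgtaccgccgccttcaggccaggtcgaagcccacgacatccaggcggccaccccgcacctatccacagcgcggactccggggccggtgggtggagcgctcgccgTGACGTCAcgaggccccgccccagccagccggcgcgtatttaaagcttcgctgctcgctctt
Errfi1: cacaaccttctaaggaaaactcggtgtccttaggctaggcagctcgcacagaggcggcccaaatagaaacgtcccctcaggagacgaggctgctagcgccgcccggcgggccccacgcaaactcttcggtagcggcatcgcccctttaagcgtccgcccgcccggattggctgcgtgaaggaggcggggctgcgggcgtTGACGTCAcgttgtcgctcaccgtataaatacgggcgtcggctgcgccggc
Zfp36: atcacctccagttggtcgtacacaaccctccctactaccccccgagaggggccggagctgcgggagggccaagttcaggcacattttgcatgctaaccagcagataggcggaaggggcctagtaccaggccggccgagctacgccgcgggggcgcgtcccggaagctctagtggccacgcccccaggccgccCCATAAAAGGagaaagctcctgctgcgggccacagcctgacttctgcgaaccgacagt
Btg2: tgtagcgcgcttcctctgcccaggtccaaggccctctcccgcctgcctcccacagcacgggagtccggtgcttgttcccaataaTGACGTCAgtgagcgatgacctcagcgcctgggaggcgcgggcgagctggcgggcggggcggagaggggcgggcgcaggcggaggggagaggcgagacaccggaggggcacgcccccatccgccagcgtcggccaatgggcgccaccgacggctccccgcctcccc
The element begins 62 bases before the start in Plk2, 51 in Errfi1, 58 in Zfp36 and 166 in Btg2. Of the 6 genes with the cyclic AMP response element, Plk2, Errfi1 and Dusp1 were at least 1.5-fold above both others in each treatment (1.64, 0.95 and 1.01 on the log2 scale). Btg2, Maff and Ppp1r15a were not so placed. Of all 47 list genes 53.2% were. Btg2, an antiproliferative gene with the same element, differed by 0.32 (SE 0.191, limma adjusted p = 0.71). Zfp36, which encodes an RNA-binding protein that speeds the decay of AU-rich transcripts, has the CArG box and differed by 0.79 (SE 0.221, limma adjusted p = 0.238). A match of letters is not a measured binding site.

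Outside the immediate early list, 6 genes passed the threshold in the higher direction. Ptger4 did so by its brightest probe set. Ddx6, Wnk1, Sox11, Set and Uhmk1 did so by a dimmer one, and their brightest probe sets, given below, were not called. Ddx6, an RNA helicase of cytoplasmic processing bodies, had scaled intensities of 5474 with vehicle and 6790.2 with aldosterone in replication 1, against 954 and 1037 in replication 2 and 1459 and 1997 in replication 3, the largest log2 difference of all called probe sets at 2.18 (SE 0.279, 4.53-fold, limma adjusted p = 0.026). Wnk1, a kinase that controls sodium and chloride cotransport in the distal nephron, had scaled intensities of 2191 with vehicle and 2227 with aldosterone in replication 1, against 443 and 535 in replication 2 and 369 and 752 in replication 3, a log2 difference of 2.01 (SE 0.271, limma adjusted p = 0.0318). Ptger4, a receptor for prostaglandin E2, had scaled intensities of 4004 with vehicle and 4057 with aldosterone in replication 1, against 1299 and 1337 in replication 2 and 707 and 1525 in replication 3, a log2 difference of 1.74 (SE 0.264, limma adjusted p = 0.0494). In each gene both arrays of replication 1 were above the other 4. Sox11, a developmental transcription factor, had scaled intensities of 5615 with vehicle and 5791 with aldosterone in replication 1, against 1495 and 1799 in replication 2 and 2246 and 1716 in replication 3, and Set, a histone chaperone and phosphatase inhibitor, had scaled intensities of 12122 with vehicle and 11288 with aldosterone in replication 1, against 3415 and 3349.7 in replication 2 and 4947 and 4156 in replication 3. They differed by 1.64 (SE 0.196, limma adjusted p = 0.0169) and 1.57 (SE 0.182, limma adjusted p = 0.0154). Uhmk1, a kinase that phosphorylates splicing factors, had scaled intensities of 6019.8 with vehicle and 5349.6 with aldosterone in replication 1, against 2119 and 2496 in replication 2 and 1362 and 1787 in replication 3, a log2 difference of 1.56 (SE 0.237, limma adjusted p = 0.0494). With the random block Ddx6, Sox11 and Set held, at 0.0252, 0.0342 and 0.0252, and Wnk1, Ptger4 and Uhmk1 did not, at 0.0785, 0.0938 and 0.0754.

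The 5 genes that were lower in replication 1 come from different processes. Acp1 and Scd1 were called by a dimmer probe set, and their brightest ones were not called. Acp1, the low-molecular-weight protein tyrosine phosphatase, had scaled intensities of 505 with vehicle and 612 with aldosterone in replication 1, against 1931 and 2685 in replication 2 and 1908 and 2137 in replication 3, a log2 difference of -1.85 (SE 0.198, 3.61-fold lower, limma adjusted p = 0.0152). Igf2bp1, which binds and stabilises messenger RNAs, had scaled intensities of 1329 with vehicle and 1281 with aldosterone in replication 1, against 3602 and 4423 in replication 2 and 3641 and 3609 in replication 3, a log2 difference of -1.51 (SE 0.168, limma adjusted p = 0.0152). Scd1, the desaturase that makes monounsaturated fatty acids, had scaled intensities of 2672 with vehicle and 2099 with aldosterone in replication 1, against 7147 and 6568 in replication 2 and 6045 and 5464 in replication 3, a log2 difference of -1.39 (SE 0.159, limma adjusted p = 0.0152). In each of these 3 genes both replication 1 arrays were below the lowest of the later arrays, and the random block kept the calls, at 0.0252, 0.0272 and 0.0252. Rnf149, an E3 ubiquitin ligase, had scaled intensities of 2955 with vehicle and 2037 with aldosterone in replication 1, against 5636 and 7044 in replication 2 and 6349 and 6677 in replication 3, and Polr2a, the largest subunit of RNA polymerase II, had scaled intensities of 9140.5 with vehicle and 9277 with aldosterone in replication 1, against 16124 and 15707 in replication 2 and 18353 and 19161 in replication 3. They differed by -1.36 (SE 0.187, limma adjusted p = 0.0318) and -0.90 (SE 0.131, limma adjusted p = 0.0411), and neither held with the random block, at 0.0785 and 0.0754. Next in order, just short of the threshold, were Mbd1, a methyl-CpG binding protein (-1.39, adjusted p = 0.0518), Gnai2, an inhibitory G protein subunit (-0.80, 0.0518), and Nras, a small GTPase (-0.92, 0.057), by limma.

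The array measures some genes with more than 1 probe set, and these did not always move together. Of the 10 called immediate early genes, 3 had a further tested probe set. All 3 further probe sets lay at least 1.5-fold above the others in both treatments: Junb at 1.61, Atf3 at 0.89 and Errfi1 at 0.89 (log2). In each of these genes the tested probe sets carry consecutive numbers. Consecutive numbers also mark a Ddx6 pair with like values and a Polr2a pair with unlike ones. Whether such pairs measure a gene independently was not tested. Of the 11 other called genes, 8 had 13 further tested probe sets, of which 2 lay as far apart in the same direction and 5 had the opposite sign. Ddx6 had a further probe set at 2.28 (SE 0.603) and another, its brightest, at -0.15 (SE 0.141). Wnk1 had 1.43 (SE 0.342) and, by its brightest, -0.078 (SE 0.155). For Set the other probe set gave -0.26 (SE 0.166) and for Uhmk1 -0.12 (SE 0.148). Acp1 had 4 others, from -0.52 to 0.079. Scd1 gave -0.56 (SE 0.171), Polr2a -0.17 (SE 0.207) and Sox11 0.98 (SE 0.254) on their other probe sets. By the suffixes _r, _i and _f, 7 of the 23 called probe sets belong to designs that share sequence with other transcripts or are incomplete. Of all tested, 14.3% do (1067 of 7453). The suffixes _g, which the called probe set of Scd1 carries, and _s were not counted. Whether probe sets of a gene detect different transcript ends or other genes was not tested.

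**Figure D4:**
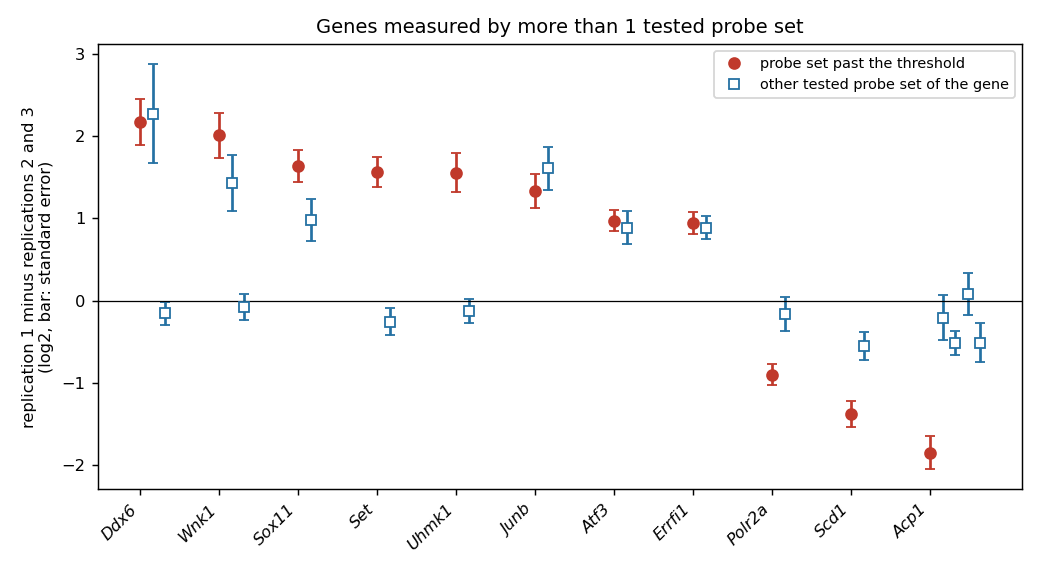
Log2 difference of replication 1 from replications 2 and 3 (points, with standard error) for the 11 called genes with more than 1 tested probe set, the called probe set in red and the others in blue. Junb, Atf3 and Errfi1 have probe sets at like values, whereas the other probe sets of Set, Uhmk1 and Polr2a lie between -0.26 and -0.12.

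On the NF-kB and inflammation list, the chemokine transcripts Cxcl2, Cxcl1 and Ccl2 lay high in replication 1 without passing the threshold. Limma called 0 of its 22 tested genes (8 at an unadjusted p under 0.05, 36.4% against 9.07% of all tested probe sets). In 5 genes (22.7%, against 1.13% of all tested genes) replication 1 lay at least 1.5-fold above both others in each treatment. The list was mixed, with 15 genes above 0 and 7 below, a median of 0.22 and a range of -0.48 to 2.05. Cxcl2, which attracts neutrophils, had scaled intensities of 3284 with vehicle and 3765 with aldosterone in replication 1, against 1189 and 1124 in replication 2 and 621 and 515 in replication 3, a log2 difference of 2.05 (SE 0.35, limma adjusted p = 0.0573). Cxcl1, its close relative, had scaled intensities of 38429 with vehicle and 38168 with aldosterone in replication 1, against 17908 and 20459 in replication 2 and 8821 and 12564 in replication 3, and Ccl2, which attracts monocytes and was named after its values were seen, had scaled intensities of 40928 with vehicle and 42157 with aldosterone in replication 1, against 20513 and 24618 in replication 2 and 10524 and 15465 in replication 3. In all 3 the order was replication 1, then 2, then 3 within each treatment, and Cxcl1 and Ccl2 differed by 1.43 (SE 0.287, limma adjusted p = 0.094) and 1.29 (SE 0.273, limma adjusted p = 0.114). The other members so placed were Nfkbia at 1.00 and Tnfaip3 at 1.81, both inhibitors of NF-kB and both also on the immediate early list. The fixed block called 6 of the 22 higher.

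Most other lists held no called gene. On the SRF and YAP target list 1 of 15 was called (Ccn1), on that of growth factors and receptors 1 of 22 (Hbegf) and on that of the amino acid response 1 of 29 (Atf3), all on the immediate early list as well. The 35 cell cycle genes had a median of -0.021 and a range of -0.42 to 0.24, with 0 called and 0 at least 1.5-fold apart. Ribosomal proteins (23 genes, median 0.13), oxidative phosphorylation (48, 0.090), the proteasome (30, 0.0096), sodium transport (14, 0.0093), sterol synthesis (16, 0.057), hypoxia and glycolysis (24, -0.041), heat shock (22, 0.089) and endoplasmic reticulum stress (19, 0.047) each had 0 called by limma and 0 apart by their brightest probe sets. The same held for the lists of oxidative stress (19), matrix and TGF-beta (29), histones and chromatin (21), growth arrest (11) and osmolytes and tonicity (8). On the lists of sodium transport and RNA decay, Wnk1 and Ddx6 were called by a dimmer probe set. Fatty acid synthesis (13 genes, median -0.085) had 0 called by its brightest probe sets, although another probe set of Scd1 was called lower. Its 1 gene apart was Elovl1, an elongase of very long chain fatty acids, at 1.42 (limma adjusted p = 0.118). The interferon list (24 genes, median 0.080) had 2 genes at least 1.5-fold above in both treatments, Ifit1 at 1.02 and Irgm1 at 0.99, and 0 called. The lists of p53 targets (12 genes), RNA decay (21) and the circadian clock (15) had 0 called by brightest probe set and 1 gene apart each, Plk2, Zfp36 and Bhlhe40. Over the 20 lists without a called gene, markers left out, 46 of 418 genes (11.0%) had an unadjusted p under 0.05 in limma, against 9.07% of all tested probe sets.

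**Figure D5:**
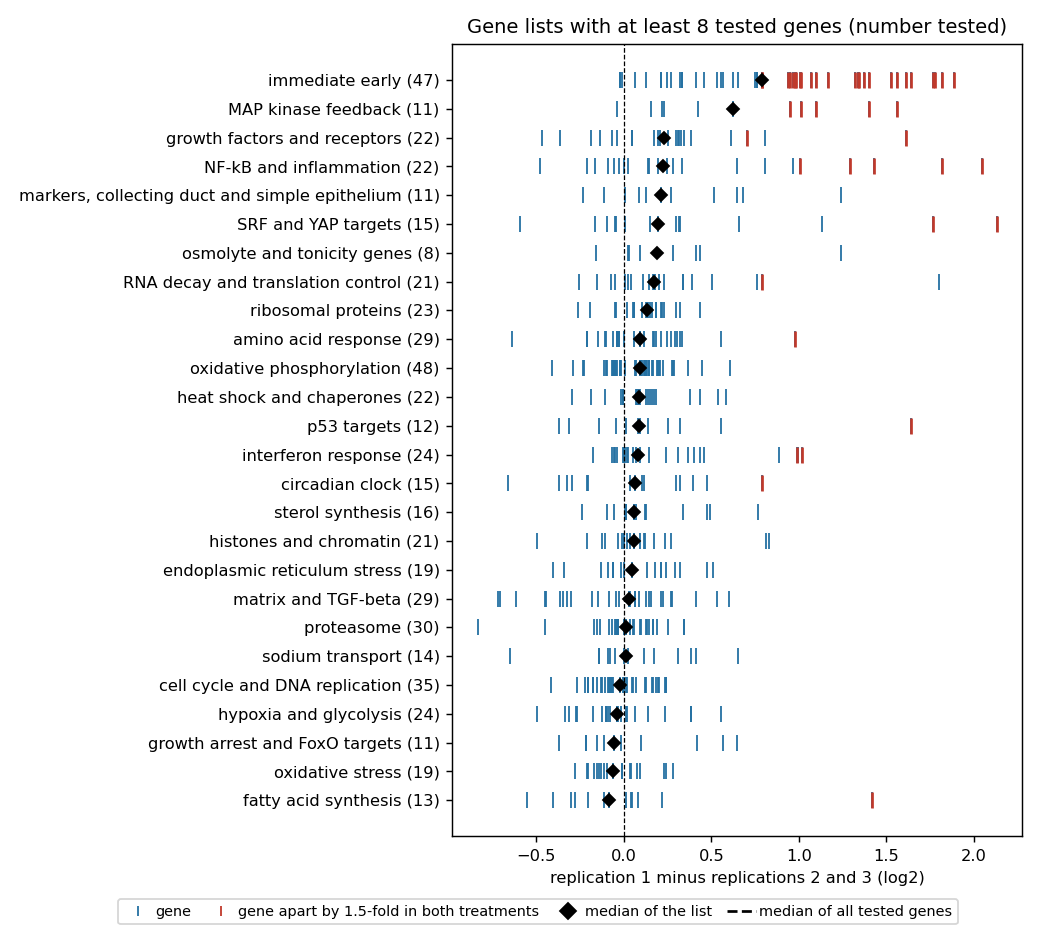
Log2 difference of replication 1 from replications 2 and 3 for each gene (ticks) of the 26 lists with at least 8 tested genes, sorted by median (diamonds). The immediate early list has the highest median at 0.79 and the MAP kinase feedback list the next at 0.62, while the dashed line marks the median of all tested genes at 0.00042.

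For markers of other kidney and stromal cells, no list had a sum on one side of the later arrays in both treatments of replication 1. Summed scaled intensities of the epithelial markers were 87048 and 86084 on the vehicle and aldosterone arrays of replication 1 against 61961 to 88384 on the other 4. Fibroblast markers (12 genes) summed to 6646 and 9316 against 7342 to 11444, and leukocyte markers (8) to 8221 and 8049 against 6334 to 9714. Endothelial markers (8) summed to 2145 and 2642 against 1642 to 2808, and proximal tubule markers (8) to 2774 and 3815 against 2625 to 4317. Intercalated cell markers (3) summed to 1184 and 1923 against 1275 to 1470, below the range with vehicle and above it with aldosterone. Levels varied within the lists. Of the leukocyte genes Ptprc stood at 32.4 to 225, Csf1r at 899 to 1491 and Cd14 at 4211 to 6998, and of the endothelial genes Cdh5 stood at 20.4 to 78.9 and Eng at 220.0 to 1714. Of the 13 tested markers of these other cells, 4 had both replication 1 arrays outside the later arrays of the same treatment, Kit and Col1a1 above (0.52 and 0.44) and Gatm and S100a4 below (-0.55 and -0.77). Of the 11 tested epithelial markers 5 were above and 1 below in this way, where 15.1% of all tested probe sets were above and 14.2% below. In limma 0 of 24 tested marker genes were called (1 at an unadjusted p under 0.05). Cldn4, a tight junction protein of the epithelial list, had scaled intensities of 11069 with vehicle and 12671 with aldosterone in replication 1, against 9189 and 11422 in replication 2 and 2713 and 2156 in replication 3, where replication 3 was the one that stood apart.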

How the data were processed

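Total RNA of mIMCD3 cells was hybridised to 6 single-colour arrays. The deposited values are intensities on a linear scale, 1 for each of 12422 probe sets and array, and the software that made them is not given in the sources used here. Each array was scaled to the mean of the 6 trimmed means (2% off each end, 2090), and log2(value + 53.0) was taken with the 10th percentile of the scaled values as pseudocount, so that fold changes of dim probe sets are understated. Probe sets with a mean log2 value under 8.87, the 40th percentile, were left out (4969), and 7453 were tested with limma 3.58.1 in R 4.3.3 (lmFit, then eBayes using the intensity trend; replication 1 and treatment as terms, two-sided, Benjamini-Hochberg over all tested, threshold 0.05). The number of arrays limits the precision: the median standard error was 0.209 (log2). The script was tested on simulated data.

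The replication number pairs the arrays, since per the labels the experiment was done 3 times with 1 array per treatment each time, and the 2 arrays of each deviated from their treatment means together, at r of 0.377, 0.387 and 0.471. It entered as a random block (duplicateCorrelation, correlation 0.340, statmod 1.5.0) and as a fixed block in alternatives.

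Symbols came from the platform annotation, and 10833 probe sets had exactly 1 (396 had several, 1193 none). RefSeq genes of GRCm38.p6 held 10817 of them and changed 0. In the 31 lists (844 genes) a gene was taken once, by its brightest probe set, which left 5640 tested genes. The replications compared, the lists and the naming rule were chosen with earlier results of these data known. The rule named up to 15 genes in each direction among called probe sets outside the others in both treatments (filled by smallest p), up to 12 called immediate early genes, 3 of each other list by smallest p, and Sgk1, Per1, Edn1 and Ccn2. Some of its 107 genes are not described.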

Additional observations from a re-analysis of the deposited data

Results flagged for a closer look

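Of 65 probe sets of named genes, 4 had 1 array far from the others among the 4 arrays of replications 2 and 3, where chance alone would set apart about 1 in 20. The aldosterone array of replication 2 had a scaled intensity of 4423 for Igf2bp1, against 3602 to 3641 on the other 3. The vehicle array of the same replication had 421 for Elovl1, against 963 to 1056, 1174 for Fosb, against 1824 to 1941, and 2548 for Dusp16, against 3043 to 3152. For Igf2bp1 both arrays of replication 1 lay below all 4.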

How the results depend on the processing

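Direction held under all alternatives for the 21 called probe sets with a gene name, which is no separate evidence. In both treatments they lay outside the other replications, so leaving out arrays or changing the error model could not turn the sign. They were refitted under 440 combinations of probe set and setting, of which 321 kept the call, 119 lost it and 0 turned the sign. The median of the immediate early list lay between 0.72 and 0.98. The number of called probe sets (23) was 40 with median scaling (29 higher, 11 lower), 37 with 4 times the pseudocount, 35 without the filter, 38 with a filter at the 60th percentile, 63 without the treatment term and 0 without the intensity trend. It was 11 with the random and 260 with the fixed replicate block, 0 at a threshold of 0.01 and 76 at 0.1. Quantile normalization, cyclic loess, a lower pseudocount, the 20th percentile and a robust fit gave 18 to 23. Leaving out arrays or a whole replication gave 0 to 793 called probe sets (793 without replication 2, 454 without replication 3), with 0 to 35 immediate early genes called in place of 10, 35 without replication 2 and 27 without replication 3. Those genes numbered 4 with the random block, 27 with the fixed block and 0 without the trend. The test of a difference between treatments called 0 to 21 probe sets on leaving out arrays of the later replications. Leaving out those of replication 1 could not be fitted there, and the random block could not either, since its correlation could not be estimated. Probe sets at least 1.5-fold above both others in each treatment numbered 101 and below 37 (1.36% and 0.496% of those tested). They were 191 and 72 without the filter, 152 and 66 with the 20th and 65 and 23 with the 60th percentile, 179 and 93 at 1.3-fold and 31 and 5 at 2-fold. The lower ones were 23 with 4 times the pseudocount. Against 1 later replication alone they were 243 to 255 above and 111 to 140 below. Among genes near 0, Per1 turned to -0.0074 with median scaling and -0.025 without the aldosterone array of replication 3. Plk3 turned to 0.46 without the vehicle array of replication 1, 0.20 without that of replication 2 and 0.27 without replication 2, from -0.51 without the aldosterone array of replication 1. Klf4 turned to 0.045, 0.12 and 0.16 on the same omissions and 0.0066 without the aldosterone array of replication 2, from -0.19 without replication 3. Spry4 turned to 0.027 without the vehicle array of replication 2 and 0.060 without replication 2, from -0.14 without replication 3, and Etv4 to -0.012 without replication 2, from up to 0.32 without replication 3. Fosb turned to 0.13 without the vehicle array of replication 3 and 0.15 without replication 3, from -0.20 without replication 2. Except where fewer arrays or probe sets entered a fit, the cause was not tested.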

Other observations

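Other replications had genes of their own that stood apart. Xrn1, named after its values were seen, is the exonuclease that degrades decapped messenger RNA. It had scaled intensities of 70.1 with vehicle and 79.4 with aldosterone in replication 2, against 1236 and 1624 in replication 1 and 1355 and 1342 in replication 3. Counted in the same way as for replication 1, the probe sets at least 1.5-fold above both others in each treatment numbered 29 in replication 2 and 28 in replication 3, and those as far below numbered 81 and 75. Replication 1 had 101 above and 37 below. Among genes higher in replication 1 but not called, F3, which encodes tissue factor, the trigger of coagulation and a target of growth signals, had 15455 with vehicle and 11162 with aldosterone in replication 1, against 5396 and 8842 in replication 2 and 4693 and 5623 in replication 3, a log2 difference of 1.13 (SE 0.249, limma adjusted p = 0.123). Its replication 1 arrays were the highest, by 1.61 in vehicle and 0.66 in aldosterone (log2). Without a replicate block, limma's test of whether these 2 differ gave an adjusted p of 0.9997.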
